A study of Bos indicus and Bos taurus with 17 samples.

Results

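The 10 genes CD3D, CD3E, CD3G, CD2, CD8A, CD4, GZMA, PRF1, IL2RB and CD69 are carried by T cells and cytotoxic lymphocytes, and their RNA was followed here in cells isolated from the milk of Kashmiri and Jersey cattle. They were chosen by name, and all 10 were found among the 21631 distinct gene names of the expression table. The cells were shed into milk and captured on magnetic beads that carried an antibody to cytokeratin 18, a structural protein of epithelial cells, so this protein had selected the cells. Milk was taken in early, middle and late lactation, on days 15, 90 and 250 in milk (D15, D90 and D250), from cows kept on 1 farm. The labels gave 17 samples, with 3 for each breed and day but 2 for Jersey cattle at D90, and lactation numbers of 2 or 3. Breed and day were the conditions compared, but by the labels lactation number differed between the groups too. Kashmiri D90 and Jersey D250 were all of lactation 2, while each other group held both 2 and 3. The part of lactation number in the differences cannot be told apart from that of breed and day. The samples of a given day all carried the same month (March, July or December), so day in milk and season cannot be told apart, and while the study's methods describe the same cows on each day, the labels do not tie samples to cows. Whether the Jersey D90 value rests on 2 or on 3 cows is not known.

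T cells recognise antigen through the T cell receptor, which reaches the cell surface together with the CD3 chains. The co-receptor CD4 marks helper T cells and CD8 marks cytotoxic T cells, while cytotoxic T cells and natural killer (NK) cells kill their targets with perforin and granzymes stored in granules. Milk carries lymphocytes beside neutrophils, macrophages and shed mammary epithelial cells, and lymphocytes of the udder are known for their part in defence against infection.

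Expression was given in FPKM, the number of sequenced fragments scaled by transcript length and by the mapped reads of the library, with 1 value made by the authors for each breed and day. Because of the scaling by length, levels are compared between genes on that scale only. There were no values per cow and therefore no error, no replicate spread and no test for any difference given here, and the number of reads behind a value is unknown. In bulk RNA, fewer cells of a type and less RNA per cell cannot be told apart. A gene was called higher or lower between a pair of groups when its log2 ratio, with 1 FPKM added to both values, was at least 2 in size and at least 1 of the values reached 1 FPKM. Folds of single genes are plain ratios of the group values.

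The samples were labelled as milk epithelial cells. Of 14 epithelial markers 12 were found and none of these was listed at 0, but they were not the most abundant markers in each group. Their summed level was above that of 7 neutrophil markers in the Kashmiri groups and below it in the Jersey groups, where at D90 it was 348 FPKM against 5723 FPKM. By these sums, Jersey marker levels went against the label, but the lists hold unlike genes and the epithelial list no casein gene. The paper reports casein and whey protein genes among its top expressed genes in both breeds on each day. The sums therefore do not give the share of epithelial cells. In the paper, a qPCR check of D90 samples gave higher KRT18 and CSN2 in captured cells than in milk somatic cells. LSP1, HBA and CD18 were lower in the captured cells. PTPRC, which encodes the pan-leukocyte antigen CD45, was at 68.7, 166 and 87.9 FPKM in Kashmiri cattle on D15, D90 and D250, and at 60.0, 120 and 320 FPKM in Jersey cattle on the same days. KRT18, which encodes the cytokeratin used for the capture, was at 51.3, 9.13 and 11.5 FPKM in Kashmiri cattle and at 33.7, 1.59 and 4.51 FPKM in Jersey cattle. Sums over all entries of the table were between 533249 and 1023150 FPKM, and several milk protein genes were listed at 0 in some groups.

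The CD3 genes encode the signalling chains that accompany the T cell receptor. CD3E had the highest level of the 10 genes in 4 of the 6 groups. On D15, D90 and D250 its values were 146, 659 and 135 FPKM in Kashmiri cattle, against 65.5, 31.7 and 19.5 FPKM in Jersey cattle. The Kashmiri D90 value was therefore 4.52-fold the D15 value of the same breed, while the Jersey D90 value was 0.484-fold its own D15 value. For CD3D the Kashmiri values were 56.5, 198 and 42.1 FPKM and the Jersey values 32.3, 13.9 and 11.5 FPKM. CD3G was at 38.4, 164 and 44.6 FPKM in Kashmiri cattle and at 19.4, 12.7 and 11.0 FPKM in Jersey cattle. The 3 CD3 genes had this much in common: Kashmiri D90 was highest, the Jersey values went down from day to day, and on no day did a Jersey value reach the Kashmiri value. Summed over the 3 genes, the level was 241, 1022 and 222 FPKM in Kashmiri cattle, against 117, 58.3 and 42.0 FPKM in Jersey cattle.

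CD2 is an adhesion receptor of T and NK cells. Its values were 15.3, 141 and 27.3 FPKM in Kashmiri cattle on D15, D90 and D250 and 14.0, 9.33 and 7.35 FPKM in Jersey cattle. Of the 10 genes it had the highest Kashmiri D90 over D15 fold, 9.17. At D15 the breeds were close to each other, with a Jersey over Kashmiri fold of 0.910, and by D90 the fold was 0.0663.

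The co-receptors differed from each other. CD4 was at 13.5, 98.9 and 29.6 FPKM in Kashmiri cattle and at 25.1, 8.37 and 9.13 FPKM in Jersey cattle. It was the only member with a higher value in Jersey than in Kashmiri cattle at D15, 1.86-fold. CD8A was at 23.5, 27.2 and 9.06 FPKM in Kashmiri cattle and at 10.7, 3.53 and 2.45 FPKM in Jersey cattle. The Kashmiri D90 value of CD8A was 1.16-fold its D15 value, against 7.34-fold for CD4.

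The cytotoxic effector genes had lower levels than CD3E in all 6 groups. PRF1, which encodes perforin, was at 26.8, 52.0 and 10.4 FPKM in Kashmiri cattle and at 25.6, 12.95 and 4.41 FPKM in Jersey cattle. At D15 the breeds were thus almost at the same level (fold 0.957), and in both breeds the lowest value was that of D250. GZMA, which encodes the serine protease granzyme A, was the lowest of the 10 genes in each group, at 1.32, 1.59 and 0.601 FPKM in Kashmiri cattle, against 1.13, 0.623 and 0.647 FPKM in Jersey cattle. Its values lay under 1 FPKM in 3 groups, and no comparison called it.

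IL2RB encodes a chain shared by the receptors for interleukin 2 and interleukin 15. Its values were 30.6, 90.8 and 20.6 FPKM in Kashmiri cattle, against 14.3, 6.08 and 6.85 FPKM in Jersey cattle, an order like that of the CD3 genes except that the lowest Jersey value was at D90. CD69 encodes an early activation antigen of lymphocytes that other activated leukocytes also carry. It was at 28.9, 59.5 and 23.0 FPKM in Kashmiri cattle and at 14.5, 326 and 749 FPKM in Jersey cattle. In Kashmiri cattle it was highest at D90, like the other members, but in Jersey cattle it was 22.5-fold higher at D90 than at D15 and 51.6-fold higher at D250 than at D15. The table held another entry that joined the name CD69 with a further Ensembl gene, at 0.856, 0.839 and 0.681 FPKM in Kashmiri cattle, against 0.348, 16.8 and 76.3 FPKM in Jersey cattle. In Jersey cattle this entry had the same direction at lower levels, while in Kashmiri cattle it was not higher at D90.

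**Figure D1:**
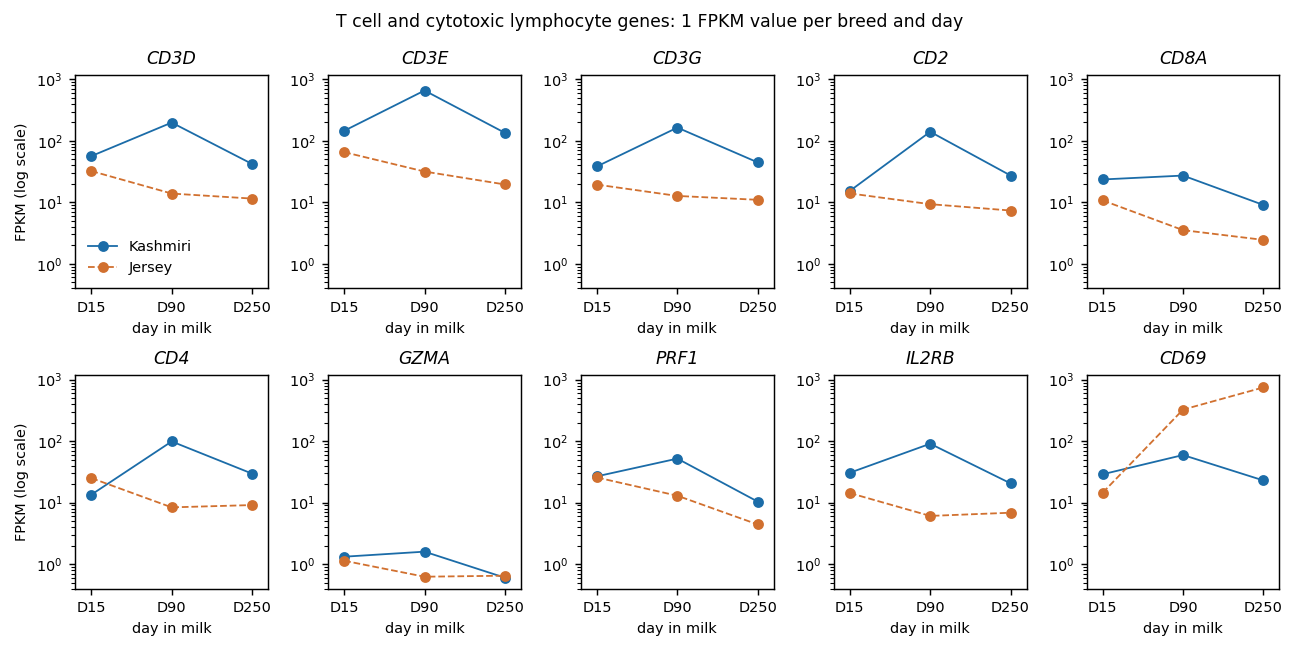
FPKM on a log axis of each of the 10 genes against day in milk (D15, D90, D250), with 1 point per breed and day and no error because each point is a single group value. In 9 of the 10 panels the highest point is Kashmiri D90, and in the panel of CD69 it is Jersey D250 at 749 FPKM.

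The levels above, plotted by breed and day, gave a few shared patterns. For 9 of the 10 genes, all but CD69, the highest of the 6 values was that of Kashmiri D90, against 14.6% of the 12342 named genes with at least 1 FPKM in any group. The same 9 genes were higher at D90 than at D15 in Kashmiri cattle and lower in Jersey cattle, against 16.6% of those genes. Within Jersey cattle, 9 of 10 had their highest value at D15, where 41.4% of 11452 genes did. Only 7 of 10 were higher in Kashmiri than in Jersey cattle on all 3 days, against 34.2% of genes, the exceptions being CD4 at D15, GZMA at D250 and CD69 at D90 and D250. These patterns share the same 6 values and are not independent of each other.

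The comparison of stages within Kashmiri cattle asks how expression changed from early to mid- and late lactation. From D15 to D90, CD3E, CD3G, CD2 and CD4 were called higher and none of the 10 lower, where 2.34% of the 11297 genes tested were called higher and 5.16% lower. Their log2 ratios were 2.17, 2.07, 3.12 and 2.79. CD3D lay just under the limit at 1.79, followed by IL2RB at 1.54, CD69 at 1.01 and PRF1 at 0.93, while CD8A at 0.20 and GZMA at 0.16 were near 0. The median over the 10 genes was 1.67, and over all genes tested it was -0.01. Divided by PTPRC, which was itself 2.42-fold higher at D90, none of the 10 passed the limit, where 0.493% of all genes were called higher, and the median was 0.41, with CD8A, GZMA, PRF1 and CD69 then lower at D90.

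From D90 to D250, CD3D, CD3E, CD2, PRF1 and IL2RB were called lower in Kashmiri cattle and none higher, where 1.12% of 11414 genes were called lower and 0.859% higher. CD2 changed by -2.32, CD3E by -2.28, PRF1 by -2.22, CD3D by -2.21 and IL2RB by -2.09 on the log2 scale. The other 5 members were also lower, from -0.70 for GZMA to -1.86 for CD3G. The median was -1.97 against 0.03 over all genes. None of the 10 passed the limit after division by PTPRC (median -1.08, with 0.236% of all genes called lower) or after scaling by the sum of the named genes without the milk protein genes (median -1.29, with 0.325% called lower and the median of all genes at 0.62).

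Between D15 and D250 no member was called in Kashmiri cattle, where 1.85% of 11487 genes were called higher and 2.2% lower. CD4 had the highest fold, 2.20, followed by CD2 at 1.78, and the lowest was that of CD8A, 0.385, close to PRF1 at 0.388. The CD3 genes were near their D15 values, with folds of 0.745 for CD3D, 0.927 for CD3E and 1.16 for CD3G. Their direction depended on the scale, since CD3D and CD3E were higher at D250 on a scale set by the sum of named genes and CD3G was lower when divided by PTPRC.

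In Jersey cattle the same stages gave a different picture. At D90 over D15, CD69 was called higher (log2 ratio 4.40) and no member lower, where 2.98% of 11080 genes were called higher and 3.78% lower. The other 9 members were lower at D90, from -0.39 for GZMA to -1.48 for CD4, with CD8A at -1.37, CD3D at -1.16, IL2RB at -1.11 and CD3E at -1.02. The median of the 10 genes was -0.98, and the median of all genes was -0.07. Divided by PTPRC, 5 members passed the limit as lower, on a scale where 14.2% of all genes did and the median of all genes was -0.91.

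Between D90 and D250 no member was called in Jersey cattle. Here 3.72% of 10955 genes were called higher and 0.466% lower, and 9 of the 10 members were tested, GZMA being under 1 FPKM at both days. CD69 was 2.30-fold higher at D250 and PRF1 was 0.341-fold its D90 level. The other folds were between 0.616 for CD3E and 1.13 for IL2RB.

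Over the whole lactation, from D15 to D250, CD69 was called higher (log2 ratio 5.60) and PRF1 lower (-2.30) in Jersey cattle, where 9.17% of 11320 genes were called higher and 3.42% lower. The remaining members were lower by less than the limit, with CD8A at -1.77, CD3E at -1.70, CD3D at -1.41, CD4 at -1.37, IL2RB at -0.96, CD2 at -0.84, CD3G at -0.77 and GZMA at -0.37. The median was -1.16 against 0.07 over all genes. PTPRC was 5.34-fold higher at D250 than at D15 in this breed, and divided by it 8 members passed the limit as lower, on a scale where 42.1% of all genes did and the median of all genes was -1.74.

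**Figure D2:**
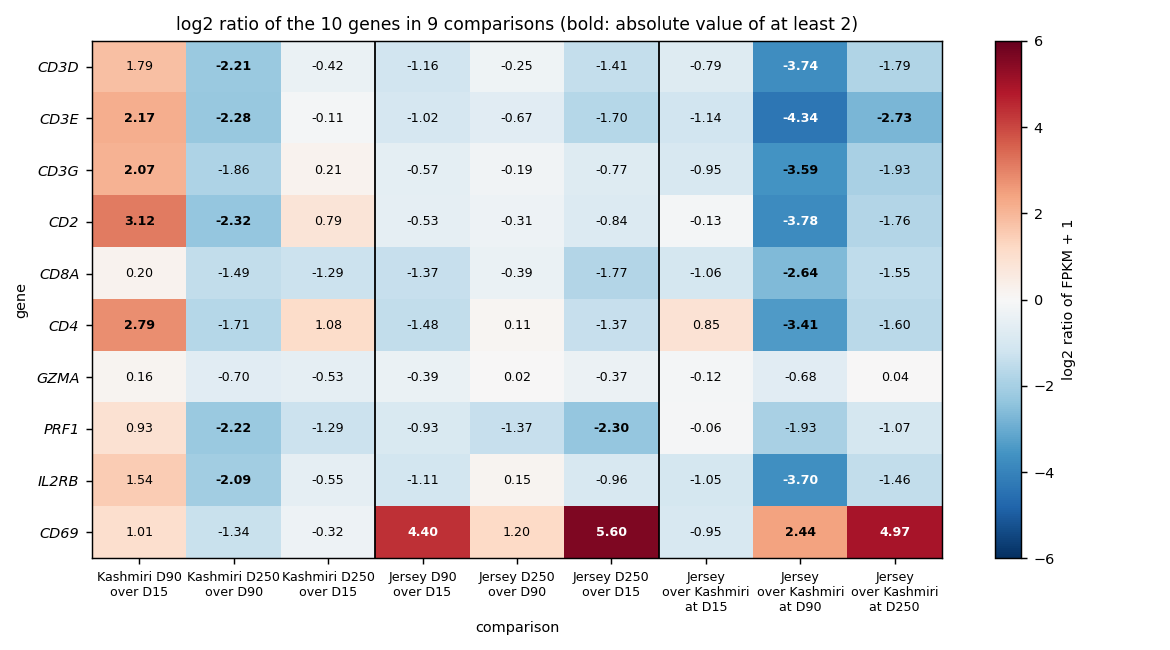
The log2 ratio of FPKM + 1 for each of the 10 genes (rows) in the 9 comparisons (columns), with red for higher and blue for lower in the group named first and bold for a size of at least 2. The column of Jersey over Kashmiri at D90 holds 7 called lower genes, from -2.64 for CD8A to -4.34 for CD3E, beside CD69 at 2.44.

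The comparison of breeds on the same day asks how Jersey and Kashmiri cattle differed. At D15 none of the 10 genes was called, where 6.45% of 11202 genes were called higher in Jersey and 2.12% lower. The log2 ratios were between -1.14 for CD3E and 0.85 for CD4, with a median of -0.87 against -0.13 over all genes. CD2, PRF1 and GZMA were within 0.13 of 0 on that scale, and each of them was above 0 under at least 1 of the rescalings.

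All members but CD69 differed most between the breeds at D90. CD3D, CD3E, CD3G, CD2, CD8A, CD4 and IL2RB were called lower in Jersey cattle, 7 of the 10, and CD69 was called higher, where 5.17% of 11209 genes were called lower and 6.58% higher. Jersey levels of CD3E were 0.0481-fold those of Kashmiri cattle, the lowest fold among the members. CD2, IL2RB, CD3D, CD3G and CD4 had folds between 0.0663 and 0.0846, while CD8A was at 0.129. PRF1 at 0.249-fold stayed just inside the limit, with a log2 ratio of -1.93, and GZMA was at 0.391-fold. CD69 was 5.49-fold higher in Jersey cattle. The median over the 10 genes was -3.50 and that over all genes -0.03. No alternative scale, pseudocount or limit tried moved this count beyond a factor of 1.5 or this median by more than 0.58.

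At D250, CD3E was called lower (log2 ratio -2.73) and CD69 higher (4.97) in Jersey cattle, where 1.37% of 11642 genes were called lower and 10.9% higher. GZMA was under 1 FPKM in both breeds and was not tested. The other 7 were lower by less than the limit, from -1.07 for PRF1 to -1.93 for CD3G, and the median was -1.57 against -0.10 over all genes. CD69 in Jersey cattle was 32.6-fold the Kashmiri level. The number called lower depended on the scale, with 5 after scaling by the upper quartile, 7 by the sum of named genes and 8 by PTPRC. The share of all genes called lower moved with it, to 3.13%, 4.84% and 26.9%, and the median of all genes to -0.56, -0.74 and -1.43.

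Ratios between genes of the same group do not depend on the scaling of that group. CD3E over CD3D was between 1.70 and 3.32, and CD3E over CD3G between 1.78 and 4.01, so each of these ratios varied by at most 2.26-fold over the groups. CD8B, which encodes the partner chain of CD8A, was between 0.936-fold and 1.95-fold the level of CD8A. The ratio of CD8A to CD4 was 1.75 in Kashmiri cattle at D15 and 0.275 and 0.306 at D90 and D250, while in Jersey cattle it was 0.428, 0.421 and 0.268. Kashmiri D15 was thus the only group in which CD8A exceeded CD4.

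PRF1 over CD3E compares the perforin gene with a pan-T cell gene. It was 0.184, 0.0789 and 0.0769 in Kashmiri cattle, against 0.391, 0.409 and 0.226 in Jersey cattle, higher in Jersey cattle on each day. GZMA over PRF1 was at most 0.147. CD3E over PTPRC sets a T cell gene beside a pan-leukocyte gene. It was 2.12, 3.97 and 1.54 in Kashmiri cattle, against 1.09, 0.265 and 0.0610 in Jersey cattle, a 65.1-fold range. The pan-leukocyte genes differed among themselves. From D15 to D250 in Jersey cattle PTPRC was 5.34-fold and LCP1 3.58-fold, but ITGB2 1.08-fold, CORO1A 0.560-fold and LSP1 0.446-fold. Values divided by PTPRC therefore rest on that gene alone. CD69 over CD3E was between 0.0902 and 0.221 in the Kashmiri groups and in Jersey cattle at D15, but 10.3 and 38.4 in Jersey cattle at D90 and D250.

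**Figure D3:**
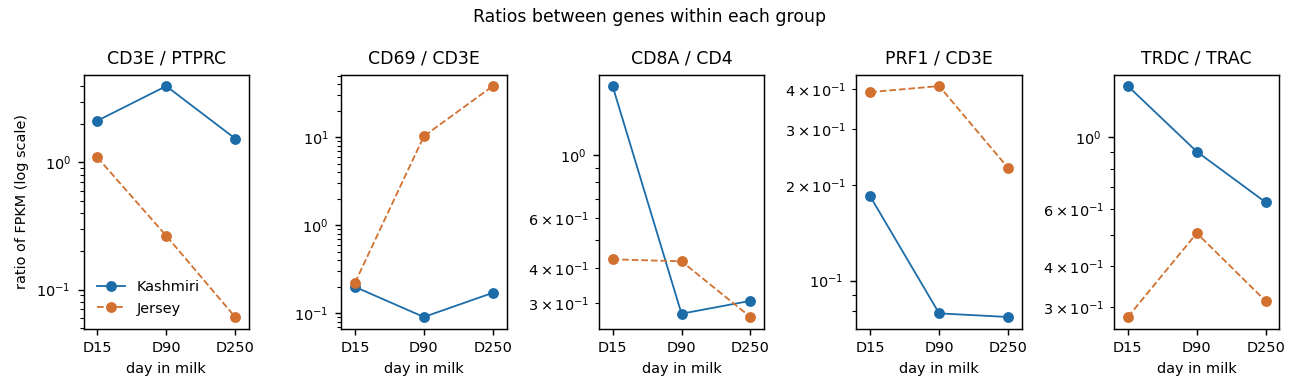
Ratios of FPKM between pairs of genes within each group, on log axes that differ between panels, against day in milk, with 1 point per breed and day. CD3E over PTPRC goes down from 1.09 to 0.0610 in Jersey cattle, where CD69 over CD3E goes up from 0.221 to 38.4, and CD8A over CD4 is highest in Kashmiri cattle at D15 (1.75).

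The plot of within-group ratios also shows TRDC over TRAC, the constant genes of the delta and alpha chains of the T cell receptor, which lie within the same locus. Gamma delta T cells are known to be numerous in cattle. TRDC was at 135, 378 and 66.3 FPKM in Kashmiri cattle and at 19.2, 15.3 and 7.72 FPKM in Jersey cattle, and TRAC at 93.7, 419 and 105 FPKM and at 68.9, 30.2 and 24.7 FPKM. The ratio was 1.44, 0.903 and 0.630 in Kashmiri cattle, against 0.279, 0.506 and 0.313 in Jersey cattle, higher in Kashmiri cattle on each day. The table held 2 entries for TRDC, and when these were summed the Kashmiri D90 ratio was 1.36.

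The other genes of T and NK cells were taken from 6 lists with 97 names, of which 80 were found, and medians of lists are over the genes found. From D15 to D90 in Kashmiri cattle, 16 of 74 tested were called higher and 2 lower, with a median log2 ratio of 1.27. Over all genes tested, 2.34% were called higher and 5.16% lower. T cell receptor and signalling genes made up 6 of the 16: TRAC (2.15), the co-stimulatory receptors CD28 (2.38) and ICOS (2.60), the inhibitory receptor CTLA4 (2.37), the helper ligand CD40LG (2.11) and the kinase FYN (2.48). None of the 23 tested from that list was called lower, and the median of the 24 found was 1.49. Granule and NK cell genes gave 4 of 15, among them NKG7 at 2.06 and the activating receptor KLRK1 at 2.25, beside SRGN and TYROBP, which myeloid cells also express.

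Transcription factors of naive and memory T cells were among the called genes. TCF7 was at 4.28 FPKM at D15 and 50.2 FPKM at D90 in Kashmiri cattle (log2 ratio 3.28), and LEF1 at 6.69 and 36.8 FPKM (2.30). SOX13, listed with the gamma delta T cell genes, was called lower (-2.89), opposite to TRDC (1.48). All 12 epithelial markers found were also lower at D90, and which cells carried SOX13 was not tested. CCR7 and S1PR1, which guide lymphocytes into and out of lymph nodes, were at 2.77 and 2.66, and the receptors IL7R and IL21R at 2.02 and 2.05. Unlike the CD3 genes, CCR7 and IL7R had like levels in both breeds at D90. They were at 102 and 58.8 FPKM in Kashmiri cattle and at 114 and 57.2 FPKM in Jersey cattle. S1PR1 and IL21R were lower in Jersey cattle.

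From D90 to D250 in Kashmiri cattle, 13 of 73 were called lower and 1 higher, with a median of -1.35. Over all genes tested, 1.12% were called lower and 0.859% higher. The lower genes included TRDC (-2.49), CD247 (-2.01), which encodes the zeta chain of the CD3 complex, CD5 (-2.10), CD7 (-3.19), LAT (-2.05) and PDCD1 (-2.11). Of the granule genes, CTSW went from 954 to 98.4 FPKM (-3.27) and CST7 from 162 to 25.6 FPKM (-2.62). The chemokines CCL5 (-3.14) and CCL4 (-2.58) were also called lower. From D15 to D250, 3 of 74 were called lower, namely the granzyme gene GZMM (-3.16), CCL5 (-2.56) and CCL4 (-2.52), and none higher. Of all genes tested, 2.2% were called lower and 1.85% higher.

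In Jersey cattle few of these genes were called between successive days. From D15 to D90, where 2.98% of all genes were called higher and 3.78% lower, 3 of 70 were called higher, namely IL15 (2.29), CXCR4 (2.70) and CCL4 (3.93), and 3 lower, namely PDCD1 (-3.00), NCR3 (-2.13) and SOX13 (-2.82). From D90 to D250, where 3.72% of all genes were called higher and 0.466% lower, 3 of 65 were called higher, among them NCR1 (2.89) and IL2RA (2.32), and CCR7 (-2.34), CCL5 (-3.27) and SRGN lower. From D15 to D250, 7 of 69 were called higher and 9 lower, where 9.17% and 3.42% of all genes were, with a median of -0.26. Among the lower genes were LCK (-2.10) and LAT (-2.10), which act just downstream of the T cell receptor, CD8B (-2.04), SIT1 (-2.16), PDCD1 (-3.23) and the granule genes CTSW (-2.85) and CST7 (-2.37). Among the higher genes were IL2RA (3.30), the cytokine IL15 (2.86), the adaptor LCP2 (3.00), NCR1 (3.25) and the receptor CXCR4 (2.28). LCP2 and CXCR4 are also expressed by myeloid cells, and which cells carried IL15 or the other higher genes was not tested. SRGN, at 1545 FPKM at D15 and 5250 FPKM at D90, was listed at 0 in Jersey cattle at D250, so its calls there rest on that entry and no fold is given.

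Between the breeds at D15, 4 of 73 were called higher in Jersey cattle and 5 lower, among the latter TRDC (-2.74), CD7 (-3.04) and IL12RB2 (-2.96). Over all genes tested at D15, 6.45% were called higher and 2.12% lower. At D90, 39 of 73 were called lower and 6 higher, with a median of -1.94, where 5.17% and 6.58% of all genes were. The lower genes included 20 of the 23 T cell receptor and signalling genes tested, and the median of the 24 found was -2.90. ZAP70, the kinase that binds the CD3 chains, was at 83.1 FPKM in Kashmiri and 5.48 FPKM in Jersey cattle. Of the 10 transcription factors tested, 7 were called lower, among them TCF7 (-4.48), LEF1 (-3.40), ETS1 (-3.28) and TBX21 (-2.36), a factor of type 1 and cytotoxic cells.

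For granule and NK cell genes the breed difference at D90 went both ways, with 7 of 15 called lower and 2 higher in Jersey cattle. CTSW, at 954 FPKM in Kashmiri and 13.7 FPKM in Jersey cattle, had the lowest log2 ratio (-6.03). KLRK1 (-3.78), GZMM (-3.07), GZMB (-2.01) and IFNG (-2.68), the interferon gamma gene, were lower as well. The 2 higher genes were SRGN (2.35) and TYROBP (2.91). Interleukins and their receptors gave 2 of 10 higher, IL2RA (2.27) and IL15 (3.04), and 2 lower, IL12RB2 (-3.74) and IL21R (-2.60). Of the 13 homing and retention genes tested, CXCR3 (-2.34), CXCR6 (-2.44) and ITGAE (-2.21) were the 3 called lower, and 2 were called higher, among them CCL4 (2.24), and of the 3 gamma delta T cell genes tested only TRDC (-4.54) was called.

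At D250, 13 of 72 were called lower in Jersey cattle and 10 higher, with a median of -0.73. Over all genes tested, 1.37% were called lower and 10.9% higher. TRAC (-2.05), TRDC (-2.95), CD247 (-2.05) and ZAP70 (-2.26) were among the lower genes. Among the higher genes were IL2RA (5.14) and NCR1 (4.51).

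**Figure D4:**
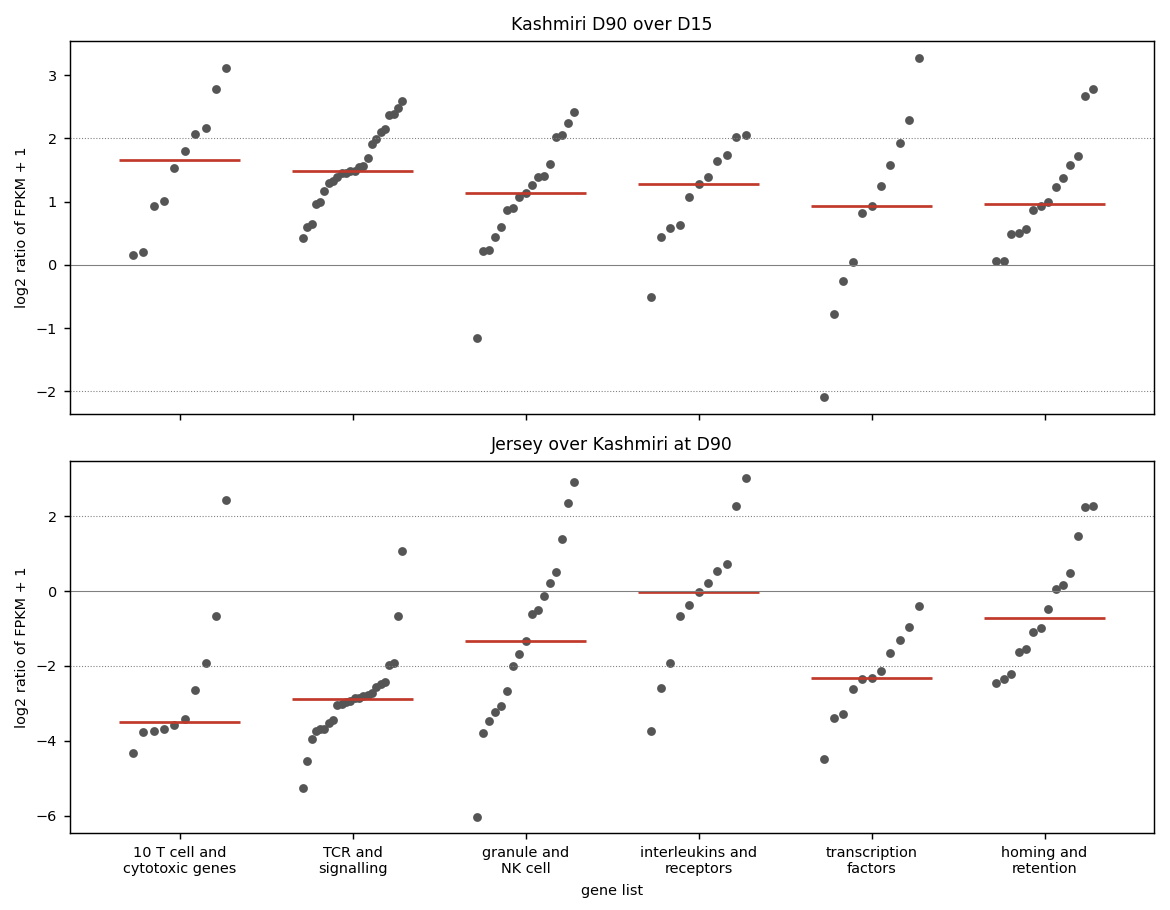
The log2 ratio of FPKM + 1 for each gene found (grey points, ordered within a list) and the median of the list (red line) for the 10 genes and 5 lists of other T and NK cell genes, for Kashmiri D90 over D15 (top) and Jersey over Kashmiri at D90 (bottom), with dotted lines at the limit of 2. The medians of the 10 genes and of the T cell receptor list are 1.67 and 1.49 in the top panel and -3.50 and -2.90 in the bottom panel.

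Markers of other milk cells also differed between the groups, only in part in the order of the CD3 genes. The summed level of 5 pan-leukocyte genes was 564, 1264 and 547 FPKM in Kashmiri cattle, against 1681, 1647 and 2345 FPKM in Jersey cattle. That of 12 macrophage and dendritic cell markers, all found, was 116, 501 and 506 FPKM in Kashmiri cattle, against 1081, 2341 and 2765 FPKM in Jersey cattle. Neutrophil markers, 7 of 12 found, summed to 158, 449 and 572 FPKM in Kashmiri cattle and to 4633, 5723 and 13866 FPKM in Jersey cattle. Each of the 7 neutrophil markers was higher in Jersey cattle on each day. The 12 macrophage markers were all higher in Jersey cattle at D15 and D90, while at D250 8 were higher and 4 lower (C1QA, C1QB, C1QC and MSR1), so the D250 sum rests on a few genes, mainly ADGRE1, CD68 and CD14. Of the 10 T cell and cytotoxic genes, 9 were lower in Jersey cattle at D90.

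Epithelial markers were lowest at D90, the day with the highest CD3 levels in Kashmiri cattle. Their sum was 7716, 1031 and 4185 FPKM in Kashmiri cattle, against 3198, 348 and 2433 FPKM in Jersey cattle. From D15 to D90 6 of 12 epithelial markers were called lower in Kashmiri cattle and 7 of 12 in Jersey cattle. The shares of all genes called lower were 5.16% and 3.78%. Of the red blood cell markers 5 of 7 were found, and they summed to at most 1.05 FPKM, with the beta globin gene HBB listed at 0 in 3 groups. The part of these other cells in the differences of the 10 genes was not tested.

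**Figure D5:**
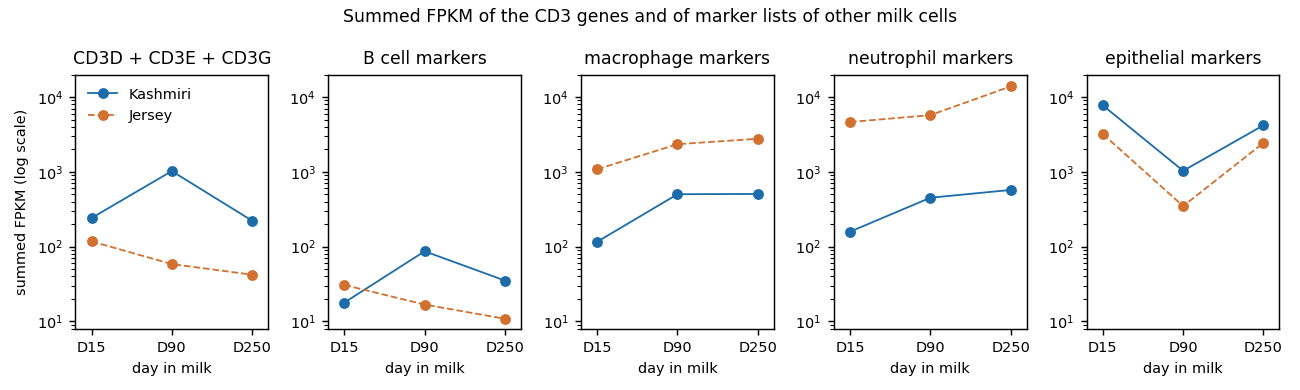
Summed FPKM on a log axis, against day in milk, of the 3 CD3 genes and of marker lists of B cells, macrophages, neutrophils and epithelial cells, with 1 point per breed and day. CD3 is highest in Kashmiri cattle at D90 (1022 FPKM), while macrophage and neutrophil sums are higher in Jersey cattle on each day.

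CD69 was set beside markers of myeloid cells, since it parted from the other members in Jersey cattle. GPR84, a receptor of activated neutrophils and macrophages, was at 28.6, 644 and 1287 FPKM in Jersey cattle on D15, D90 and D250, and GPR84 over CD69 was 1.97, 1.97 and 1.72. In Kashmiri cattle that ratio was between 0.0337 and 0.198. CSF3R, the receptor for granulocyte colony-stimulating factor, was 21.4-fold, 1.44-fold and 3.40-fold the level of CD69 in Jersey cattle. Other myeloid markers went another way in Jersey cattle. C1QA was at 145, 60.3 and 12.01 FPKM, S100A8 at 1652, 1276 and 3034 FPKM and MMP9 at 25.0, 70.1 and 14.8 FPKM, so GPR84 and CSF3R do not stand for all markers of these lists. Over the 6 groups, the correlation of CD69 with each of the other members was below 0, as a description over 6 values that share the same libraries. It was 0.850 with GPR84 and 0.560 with S100A8. Genes of the interleukin and receptor list went both ways. The correlation was 0.897 with IL15, 0.837 with IL2RG and 0.821 with IL2RA, but -0.749 with IL12RB1, -0.443 with IL12RB2 and -0.151 with IL21R. The part of myeloid cells or of lymphocytes in the level of CD69 was not tested.

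The genes most like the CD3 genes were ranked by Pearson's r of log2(FPKM + 1) with the mean of the 3 CD3 genes over the 6 groups, among 12342 genes. Outside the lists, and leaving out entries whose name starts with an Ensembl gene identifier, the highest were SH2D2A (r = 0.996), an adaptor of T cells, CALHM2 (0.996), a channel protein, BAZ1B (0.994), a chromatin protein, GMNN (0.994), an inhibitor of DNA replication licensing, and LAX1 (0.993), an adaptor of lymphocytes. The entries left out stayed in the ranking and are not reported here, and CD3E itself stood at rank 3. These r values describe 6 points and carry no test. SH2D2A was at 24.5, 92.2 and 16.4 FPKM in Kashmiri cattle and at 9.74, 3.85 and 2.60 FPKM in Jersey cattle, while BAZ1B ranged only from 7.45 to 15.2 FPKM. Among the other members r was 0.988 for IL2RB, 0.952 for CD2, 0.903 for CD4, 0.902 for CD8A, 0.811 for PRF1, 0.761 for GZMA and -0.565 for CD69.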

How the data were processed

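The labels describe RNA-seq of 17 milk cell samples in 6 groups of breed and day, and the study describes 1 more library. Reads were trimmed by the authors and aligned with Bowtie2 and TopHat, on the UMD3.1 assembly. Reads with several mapping positions were discarded, which lowers the values of genes with near-identical copies, and Cufflinks and Cuffdiff gave the quantities. The deposited values are FPKM, 1 per entry and group, with 61264 entries, of which 36143 carry no name. The columns named Local were taken as Kashmiri. The labels give lactation numbers of 2 or 3, and the study's methods the third lactation for all cows.

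For repeated names the entry with the highest mean was used, and joined names were looked up by each part. Limits were 1 FPKM and a log2 ratio of 2, with a pseudocount of 1, in 9 comparisons. Without replicates no test was made. The 10 genes and the lists (T cell receptor and signalling, granule and NK cell, interleukin receptor, transcription factor, homing, gamma delta T cell, pan-leukocyte, B cell, macrophage, neutrophil, epithelial and red blood cell genes) were chosen with earlier results of these data known. The genes named were the 10, genes of the T and NK cell lists past the limit in at least 1 comparison (a few of them are counted but not reported here by name), PTPRC, KRT18 and the 5 genes outside the lists most like CD3. Entries whose name starts with an Ensembl gene identifier were left out when these 5 were taken. The neighbouring genes, CD79A and the genes set beside CD69 were added after their values were seen. Alternatives were another pseudocount, minimum, limit or scale, and summed entries. The code was tested on simulated data. Computations used Python 3.11.15 with numpy 2.4.6 and pandas 2.3.3, and plots were drawn in matplotlib 3.10.9.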

Additional observations from a re-analysis of the deposited data

Results flagged for a closer look

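For 6 differences, the members went in opposite directions in the breeds, by at least 1 on the log2 scale in both. How many of all genes met this rule was not counted. By any size, 16.6% of 12342 genes were higher at D90 than at D15 in Kashmiri and lower in Jersey cattle. No difference between the breeds' changes was tested, since each group has a single value. For D90 over D15, the Jersey log2 ratio minus the Kashmiri one was -2.95 for CD3D (Jersey -1.16, Kashmiri 1.79), -3.20 for CD3E (-1.02 and 2.17), -4.26 for CD4 (-1.48 and 2.79) and -2.65 for IL2RB (-1.11 and 1.54). For D250 over D90 it was 2.53 for CD69 (Jersey 1.20, Kashmiri -1.34), and CD69 was lower at D250 in Jersey cattle too when divided by PTPRC. For D250 over D15 it was -2.45 for CD4 (Jersey -1.37, Kashmiri 1.08). Divided by PTPRC, Kashmiri D15 and D90 values were 0.823 and 1.19 for CD3D, 2.12 and 3.97 for CD3E and 0.446 and 0.547 for IL2RB. On that scale CD4 was at 0.196 and 0.337 in Kashmiri cattle at D15 and D250. Each of these 4 rises was then less than 1 on the log2 scale. The 3 comparisons of days within a breed share their groups.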

How the results depend on the processing

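No paired analysis was possible because the table holds 1 value per group and no replicate numbers. A pseudocount of 0.1, a minimum of 0.01 FPKM and summed entries left each member count within a factor of 1.5 and each member median within 0.58. Jersey over Kashmiri at D90 kept its count and median within those tolerances under each alternative. Divided by PTPRC, the median and the number of members past the limit became 0.41 and 0 for Kashmiri D90 over D15, -1.08 and 0 for Kashmiri D250 over D90, -1.96 and 6 for Jersey D90 over D15, -1.37 and 1 for Jersey D250 over D90, -3.34 and 9 for Jersey D250 over D15, and -3.17 and 9 for Jersey over Kashmiri at D250. For Jersey D250 over D90 divided by PTPRC, 68 of 10611 genes passed as higher and 648 as lower. Rescaled to the sum of named genes, they became -1.29 and 0 for Kashmiri D250 over D90, 0.61 and 1 for Kashmiri D250 over D15, where the median thus changed sign, and -2.25 and 8 for Jersey over Kashmiri at D250, which had 6 by the upper quartile. By the sum of named genes, 841 of 11891 genes passed as higher and 70 as lower for Kashmiri D250 over D15. With a limit of 1, 7, 9 and 3 members passed in Kashmiri cattle for D90 over D15, D250 over D90 and D250 over D15, and 6, 2 and 6 in Jersey cattle, with 3 and 9 for Jersey over Kashmiri at D15 and D250. The numbers of all genes past this limit, higher and lower, follow in the same order. They were 1661 and 2120 of 11297, 1022 and 1001 of 11414 and 1291 and 1662 of 11487 in Kashmiri cattle. In Jersey cattle they were 1421 and 1876 of 11080, 1823 and 462 of 10955 and 2778 and 2022 of 11320. For Jersey over Kashmiri they were 1781 and 1452 of 11202 at D15 and 2651 and 1366 of 11642 at D250. Of the log2 ratios of single members, 349 values under alternatives were within the tolerance and 101 were not. These shifts follow from the scales themselves: the median of all genes in Jersey D250 over D15, 0.07, became -1.74 when divided by PTPRC. A change carried by 1 cow cannot be told from a change shared by the group, and values near 1 FPKM, such as those of GZMA, have an unknown depth behind them.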

Other observations

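B cell genes followed the T cell genes in part. All 10 B cell markers were found, and they summed to 17.8, 86.5 and 35.1 FPKM in Kashmiri cattle on D15, D90 and D250 and to 30.6, 16.7 and 10.8 FPKM in Jersey cattle. CD79A, a chain of the B cell receptor complex, was at 8.03, 42.5 and 9.77 FPKM in Kashmiri cattle and at 6.93, 4.22 and 2.22 FPKM in Jersey cattle. Like CD4, the B cell sum was higher in Jersey than in Kashmiri cattle at D15 and lower at D90.

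The gene order was read from a RefSeq annotation of another assembly (NIAB-ARS_B.indTharparkar), in which all 10 members matched by symbol and CD3E, CD3D and CD3G follow each other. MPZL2, on the outer side of CD3E, was at 100, 201 and 40.8 FPKM in Kashmiri cattle and at 483, 373 and 165 FPKM in Jersey cattle. UBE4A, next to CD3G, was at 6.48, 12.4 and 12.02 FPKM and at 4.66, 16.6 and 38.9 FPKM. Both flanking genes were higher in Jersey than in Kashmiri cattle at D90, where the 3 CD3 genes were lower. Within each breed, however, MPZL2 had the same order of days as CD3D and CD3E. It was highest at D90 in Kashmiri cattle and went down from day to day in Jersey cattle, where UBE4A went up. LAG3, an inhibitory receptor that lies next to CD4, was at 7.62, 15.5 and 3.52 FPKM in Kashmiri cattle and at 12.2, 4.19 and 4.06 FPKM in Jersey cattle, the same order at D15 and D90 as CD4.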
